A study of Mus musculus with 6 samples.

Results

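The genes described here encode the CD3 chains and the signalling proteins that lie closest to the T cell receptor. The 10 genes listed were the CD3 chain genes Cd3d, Cd3e, Cd3g and Cd247, the kinase genes Zap70 and Lck, and Lat, Trat1, Themis and Cd5, which encode adaptors and regulators. They were taken by symbol from the platform annotation, and 9 of them were measured among 19938 genes, each by 1 probe set. Lck was not analysed here. RNA came from CCR6+ group 3 innate lymphoid cells (ILC3s), which were sorted from the lamina propria of the small intestine of adult C57BL/6 mice. The 3 RANKL-deficient samples carried Tnfsf11fl/fl, floxed alleles of the gene of the cytokine RANKL, together with a Cre transgene. The 3 control samples carried Tnfsf11fl/fl alone, so both groups had the floxed alleles and the control labels name no Cre. An effect of Cre itself therefore cannot be told apart from that of the deletion. Nothing in the labels says that the replicates are different mice, so p-values cover the scatter of these samples only, and that scatter may be technical.

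In T cells, the receptor chains that bind antigen have short tails and signal through the CD3γ, CD3δ, CD3ε and ζ chains, whose tails carry tyrosine motifs called ITAMs. The kinase LCK phosphorylates these motifs, ZAP-70 docks on them, and ZAP-70 then phosphorylates the scaffold LAT, from which calcium and Ras signals start. ILC3s belong to the lymphoid lineage but carry no rearranged antigen receptor, and surface CD3 is usually used to gate T cells out of an ILC sort. The comparison asks whether transcripts of this module differ between RANKL-deficient and control cells.

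Values are log2 expression, so a difference of 1 is a doubling, and each difference is given as RANKL-deficient minus control. The array medians lay close together, from 5.07 to 5.15. Control arrays 1 and 2 stood apart, with mean correlations across genes with the other arrays of 0.960 and 0.970, against 0.975 to 0.977 for the rest. Their values also spread less across genes, with SDs of 1.86 and 1.93, against 1.99 to 2.01 for the rest. By limma with Benjamini-Hochberg adjustment over all genes, 0.00502% of genes passed the threshold of 0.05, which was the gene Ccr2 alone. Its log2 difference was 2.76 (limma, adjusted p = 0.0236), and leaving out any array but RANKL-deficient array 3 ended the call (limma, adjusted p from 0.0673 to 0.250), as did the replicate number as a block (limma, adjusted p = 0.331). Tnfsf11 itself differed by 0.035 (SE 0.17, limma adjusted p = 0.963), or by −0.033 after quantile normalization, and since it is not known here whether its probes lie in the deleted part, it does not check the labels. No background level was measured, so the median gene (5.12) serves below only as a mark. A fold against a group mean under that mark would be a lower bound if those cells were at background.

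Among the 9 measured genes, Cd3g had the largest difference in the lower direction, −1.91 log2 units in RANKL-deficient relative to control cells. Lat had the largest in the higher direction, 0.51. None of the 9 passed the adjusted threshold (limma, lowest adjusted p = 0.408), and 2 had an unadjusted p under 0.05, against 8.15% of all genes. These were Lat in the higher direction, against 4.25% of all genes, and Cd3g in the lower, against 3.9%. The groups did not overlap for 3 of the 9, namely Cd3g in the lower direction and Lat and Trat1 in the higher, against 14.4% of all genes (5.28% higher and 9.08% lower). The median difference of the 9 was −0.027, beside −0.054 for all genes. Of the 9, 3 had higher and 6 had lower values, beside 7884 higher and 12054 lower over all genes. The plot of values by array shows the groups gene by gene.

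**Figure D1:**
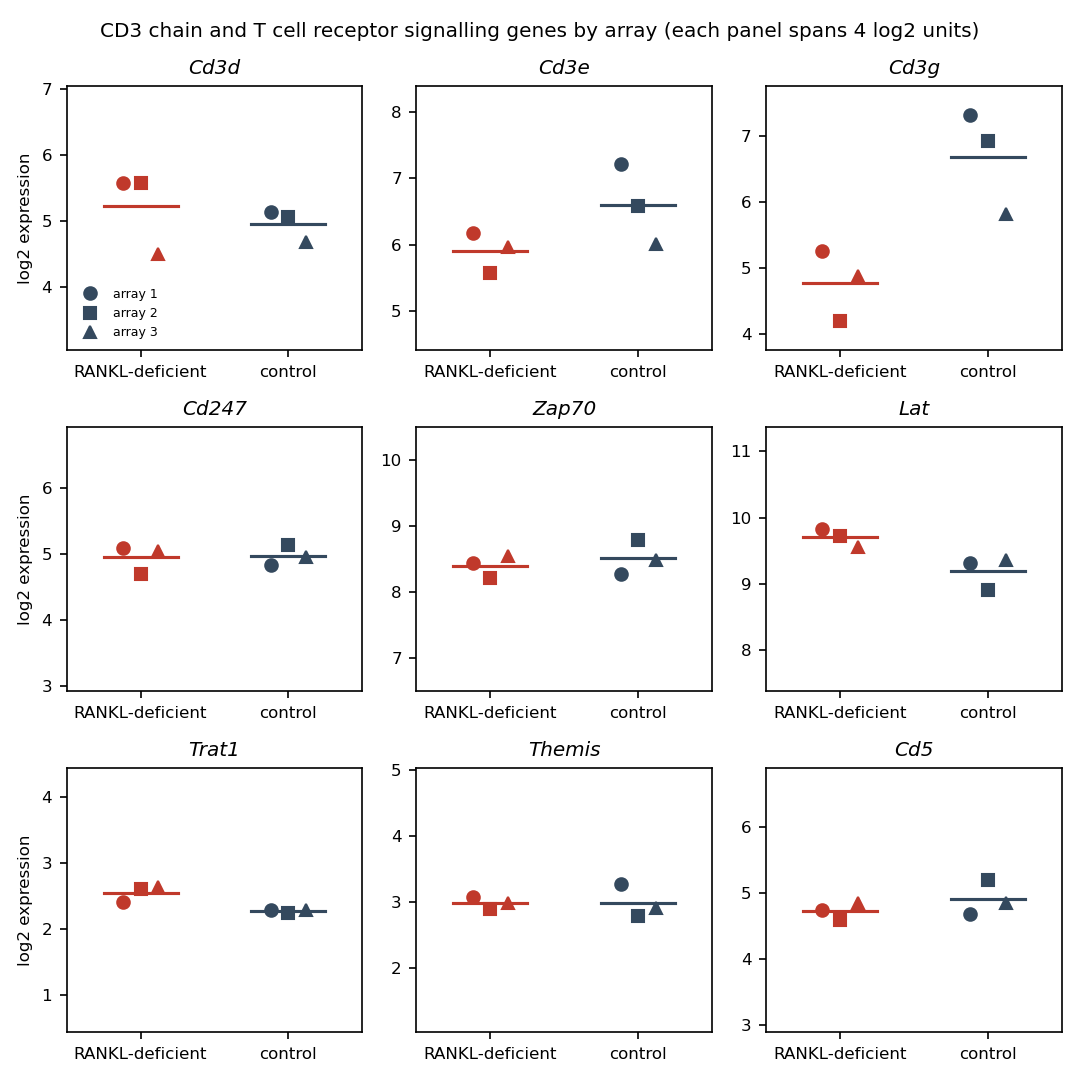
Log2 expression of the 9 measured genes on each array (y axis, 4 log2 units in every panel), with RANKL-deficient arrays at left and control arrays at right. Marker shapes give the array number and bars the group means (n = 3 each). The groups are apart for Cd3g, Lat and Trat1 and overlap in the other 6 panels.

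The genes of CD3γ, CD3δ and CD3ε lie side by side on chromosome 9 in the RefSeq table of GRCm38.p6, in the order Cd3g, Cd3d, Cd3e. Cd3g and Cd3d are read away from each other, Cd3g from the minus and Cd3d from the plus strand, and Cd3e is read from the minus strand. Though the groups overlapped for Cd3d and Cd3e, the values of these neighbours differed in direction, so the 250 bases before each start are shown. They are RefSeq sequences of GRCm38.p6, written 5′ to 3′ on the strand of the gene, at chr9:44980432-44980681 (minus), chr9:44981536-44981785 (plus) and chr9:45009612-45009861 (minus). Capitals mark motif matches on either strand.
Cd3g: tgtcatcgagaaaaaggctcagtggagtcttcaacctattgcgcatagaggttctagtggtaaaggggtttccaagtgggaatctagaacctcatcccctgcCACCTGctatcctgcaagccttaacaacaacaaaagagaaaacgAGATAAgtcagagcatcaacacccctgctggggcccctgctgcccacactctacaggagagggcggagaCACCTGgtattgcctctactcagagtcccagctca
Cd3d: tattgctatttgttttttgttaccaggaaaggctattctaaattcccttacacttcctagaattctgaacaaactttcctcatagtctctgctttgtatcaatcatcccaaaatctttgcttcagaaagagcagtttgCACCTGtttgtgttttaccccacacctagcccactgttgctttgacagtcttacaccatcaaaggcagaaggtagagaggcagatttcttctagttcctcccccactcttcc
Cd3e: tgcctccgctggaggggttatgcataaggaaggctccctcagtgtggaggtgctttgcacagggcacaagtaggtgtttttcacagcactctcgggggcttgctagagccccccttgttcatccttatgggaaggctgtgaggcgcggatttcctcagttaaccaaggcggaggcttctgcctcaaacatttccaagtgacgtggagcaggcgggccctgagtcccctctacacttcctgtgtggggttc

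Motifs were searched on both strands. The E-box, which E proteins bind, was searched as CAGGTG, and the motif of GATA factors was searched with the letters AGATAA. The motif of RUNX factors was searched as TGTGGT. For ETS factors the letters were CCGGAA. The TATA box was searched with the letters TATAAA. The Cd3g stretch held the E-box letters at 2 places and the GATA letters at 1 place, and the Cd3d stretch held the E-box letters at 1 place. The Cd3e stretch held none of the 5 motifs, and no matches overlapped. Over 32851 promoter stretches of the same 250 bases, 17.2% held the E-box letters and 9.99% the GATA letters. The RUNX, ETS and TATA letters were in 14%, 12% and 12.4%. A match describes letters and is not a binding site.

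Cd3g encodes CD3γ, which pairs with CD3ε in the receptor complex. It measured 5.26, 4.20 and 4.89 on RANKL-deficient arrays 1, 2 and 3, against 7.32, 6.93 and 5.82 on control arrays 1, 2 and 3. Every RANKL-deficient array lay below every control array, and control arrays 1 and 2 were the highest. The means were 4.78 ± 0.54 in RANKL-deficient and 6.69 ± 0.78 in control cells (SD, n = 3 each). The difference was −1.91 (SE 0.43, 95% confidence interval −2.91 to −0.90), or 3.75-fold, and it did not pass after adjustment (limma, unadjusted p = 0.00276, adjusted p = 0.408). The RANKL-deficient mean lay under the median gene, so the limit on folds given above holds here. Without control arrays 1 and 2, the arrays that stood apart, the difference was −1.04 (limma, adjusted p = 0.812). In bulk samples, fewer cells of a type and less RNA per cell cannot be told apart.

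Cd3e encodes CD3ε, the chain shared by both CD3 pairs and the usual surface marker of T cells. It measured 6.18, 5.57 and 5.96 on the RANKL-deficient arrays and 7.22, 6.58 and 6.01 on the control arrays. The groups overlapped, since RANKL-deficient array 1 lay above control array 3. Its difference was −0.70 (SE 0.31, 95% confidence interval −1.44 to 0.039, limma adjusted p = 0.618). Without control array 1 it was −0.39, and without control arrays 1 and 2 it was −0.11.

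Cd3d, the gene of CD3δ, had the higher mean in RANKL-deficient cells. It measured 5.58, 5.57 and 4.50 on the RANKL-deficient arrays, against 5.14, 5.06 and 4.68 on the control arrays. The lowest array of each group was array 3, and the groups overlapped. The difference was 0.26 (SE 0.31, 95% confidence interval −0.47 to 0.99, limma adjusted p = 0.827), and it ranged from 0.078 without RANKL-deficient array 1 to 0.62 without RANKL-deficient array 3. Both group means lay near the median gene.

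Cd247 encodes the ζ chain, which natural killer receptors also use as a signalling partner. It measured 5.09, 4.70 and 5.04 on the RANKL-deficient arrays and 4.83, 5.14 and 4.95 on the control arrays. The groups overlapped throughout, with a difference of −0.027 (SE 0.16, 95% confidence interval −0.40 to 0.35, limma adjusted p = 0.969). After quantile normalization the sign turned, to 0.010.

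**Figure D2:**
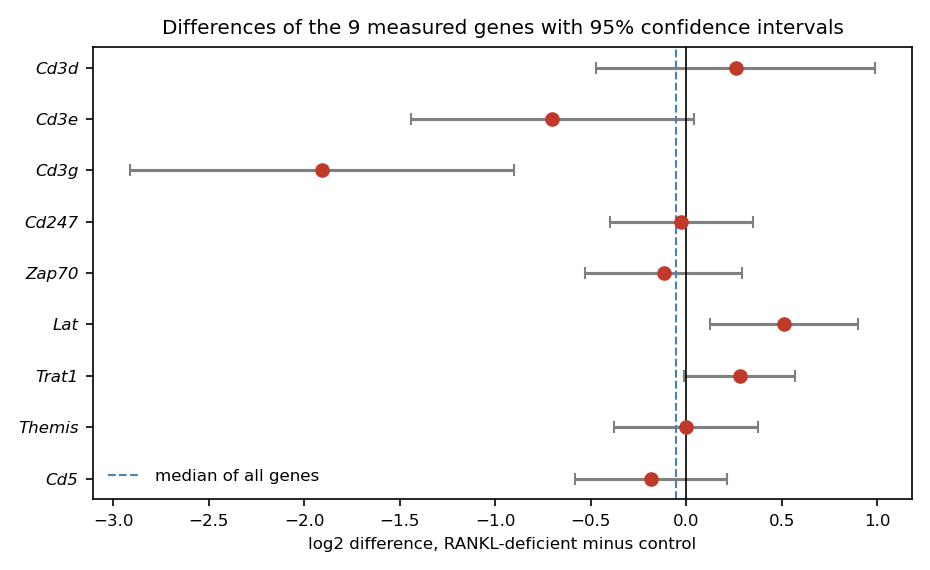
Log2 difference, RANKL-deficient minus control (x axis), of each measured gene with its 95% confidence interval from limma. The solid line marks 0 and the dashed line the median of all genes (−0.054). The intervals of Cd3g and Lat lie off 0, and that of Cd3g is the widest.

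By a fixed rule of likeness, the genes nearest to the mean of Cd3d, Cd3e and Cd3g were Dhrs7, E2f6, Smagp, Ppdpf and Zfp511. Their Pearson correlations over the 6 arrays were 0.983, 0.980, 0.971, 0.964 and 0.959, the highest of 3263 genes ranked. Each of these genes was highest on control array 1 and next on control array 2, the arrays that stood apart. The rank rests on 6 arrays of 2 groups and is a description.

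The kinase gene Zap70 encodes ZAP-70, which binds phosphorylated ITAMs in T cells and natural killer cells. It measured 8.44, 8.21 and 8.54 on the RANKL-deficient arrays, against 8.27, 8.79 and 8.49 on the control arrays. All 6 arrays lay well above the median gene and the groups overlapped. The means were 8.40 ± 0.17 in RANKL-deficient and 8.52 ± 0.26 in control cells (SD, n = 3 each). The difference was −0.12 (SE 0.17, 95% confidence interval −0.53 to 0.29, limma adjusted p = 0.857). Without 1 array it ranged from −0.24 (control array 1) to 0.018 (control array 2).

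Lat encodes the membrane scaffold LAT, on which phospholipase Cγ1 and SLP-76 assemble. It measured 9.83, 9.72 and 9.55 on the RANKL-deficient arrays and 9.31, 8.91 and 9.36 on the control arrays. Each RANKL-deficient array lay above each control array. The means were 9.70 ± 0.14 in RANKL-deficient and 9.19 ± 0.25 in control cells (SD, n = 3 each), a 1.42-fold difference. On the log2 scale this was 0.51 (SE 0.16, 95% confidence interval 0.12 to 0.90), and it did not pass after adjustment (limma, unadjusted p = 0.0170, adjusted p = 0.546). Without control arrays 1 and 2 it was 0.35.

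The remaining adaptors and regulators all had means below the median gene. Trat1 encodes TRIM, a membrane adaptor that associates with the T cell receptor complex. It measured 2.41, 2.60 and 2.63 on the RANKL-deficient arrays, against 2.29, 2.24 and 2.28 on the control arrays. The groups did not overlap, but the difference was 0.28 (SE 0.12, limma adjusted p = 0.615) between means far under the median gene.

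Themis encodes a regulator of T cell receptor signalling needed for thymocyte selection. It measured 3.08, 2.90 and 2.99 on the RANKL-deficient arrays and 3.27, 2.78 and 2.91 on the control arrays. The groups overlapped, with a difference of −0.0029 (SE 0.16, 95% confidence interval −0.38 to 0.38, limma adjusted p = 0.996). Its sign turned after quantile normalization, to 0.064.

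Cd5 encodes a surface receptor that dampens T cell receptor signals. It measured 4.74, 4.58 and 4.85 on the RANKL-deficient arrays, against 4.68, 5.19 and 4.84 on the control arrays. These groups overlapped too, with a difference of −0.18 (SE 0.17, 95% confidence interval −0.58 to 0.21, limma adjusted p = 0.772). It was −0.039 without control array 2 and −0.29 without control array 1.

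The T cell receptor chains that pair with CD3 could be followed only through probe sets annotated to variable segments, a choice made after the values were seen, so no test is given. There were 52 such probe sets, and most carry several symbols, so those are given by number and not by gene. The alpha locus held 45, of which 34 had distinct values. In 28 of these 45 the mean lay below the median gene, and the groups did not overlap for 5, which hold 3 distinct sets of values. These were lower in RANKL-deficient cells, where 9.08% of all genes were lower with no overlap.

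Probe set 10415015 of the alpha locus followed single arrays. It measured 2.26, 2.02 and 2.22 on the RANKL-deficient arrays and 6.62, 2.02 and 3.92 on the control arrays. Control array 1, where Cd3g and Cd3e were also highest, held the high value, while control array 2, where Cd3g measured 6.93, was as low as the RANKL-deficient arrays. Its part in the Cd3g difference was not tested.

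Of the 4 gamma locus probe sets, 3 had higher values in RANKL-deficient cells and 1 had lower values. The 3 had no overlap, where 5.28% of all genes were higher with no overlap. These 3 share symbols in the annotation, so they may not be separate measures. Probe set 10403821 measured 12.15, 12.15 and 12.01 on the RANKL-deficient arrays, against 11.26, 11.40 and 11.24 on the control arrays. Probe set 10407940, annotated to the same segments, measured 12.03, 12.03 and 11.83 on the RANKL-deficient arrays and 11.17, 11.42 and 11.06 on the control arrays. In both, every RANKL-deficient array lay above every control array, with differences of 0.81 and 0.75.

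Probe set 10403816 of the gamma locus differed by 0.50, again with no overlap, at 6.91 to 7.24 on the RANKL-deficient and 6.32 to 6.79 on the control arrays. Trgv1, the 1 gamma segment with a probe set of its own, did not follow. It measured 8.92, 9.18 and 8.84 on the RANKL-deficient arrays, against 9.27, 9.50 and 8.97 on the control arrays, and the groups overlapped. The 2 beta probe sets overlapped between groups. The 1 delta probe set differed by −0.31, with both groups below the median gene. It was lower in RANKL-deficient cells with no overlap, where 9.08% of all genes were lower with no overlap.

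**Figure D3:**
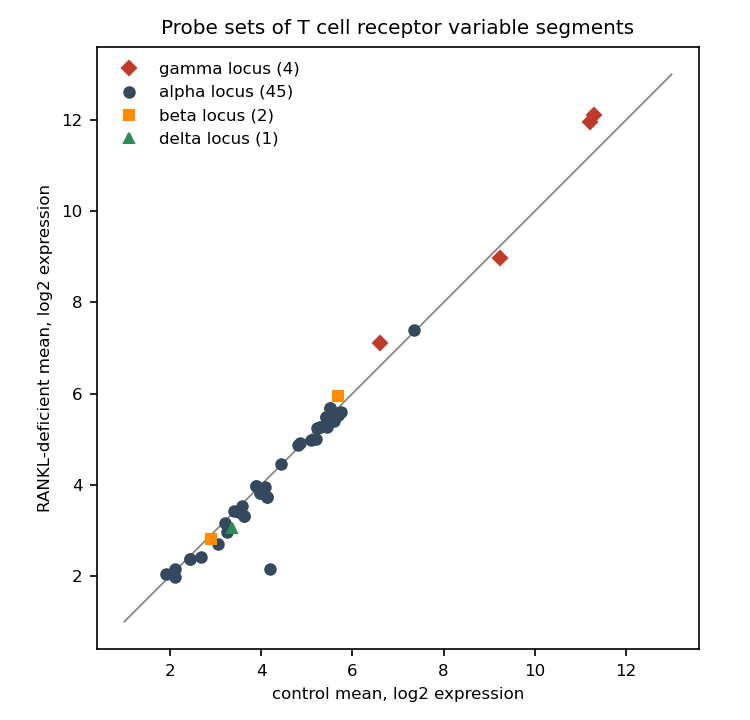
Mean log2 expression of the 52 probe sets annotated to T cell receptor variable segments, in control cells (x axis) and RANKL-deficient cells (y axis, n = 3 arrays each), with the line of equal values. The gamma locus points lie at 6.86 to 11.70 on average and 3 of 4 lie above the line, and the alpha point far below it is probe set 10415015.

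Beyond the core genes, 69 of 74 listed genes of the wider pathway were measured, in 6 lists by role. None passed the adjusted threshold (limma, lowest adjusted p = 0.245), and 13 had an unadjusted p under 0.05, against 8.15% of all genes. Of these, 9 were higher, against 4.25% of all genes, and 4 lower, against 3.9%. The groups did not overlap for 13 genes in the higher direction, against 5.28% of all genes, and for 6 in the lower, against 9.08%. The median difference was 0.049, beside −0.054 for all genes. However, 56 of the 69 had means above the median gene, and genes above that mark had a median difference of 0.033.

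Of 13 coreceptors and costimulatory receptors, 4 had groups apart, all higher in RANKL-deficient cells, where 5.28% of all genes were higher with no overlap. Cd4, the coreceptor that part of the mouse lymphoid tissue inducer cells also carry, measured 9.27, 9.19 and 9.50 on the RANKL-deficient arrays, against 8.19, 8.79 and 8.93 on the control arrays. The difference was 0.69 (SE 0.21, limma adjusted p = 0.523). Icos, a costimulatory receptor of T cells and ILCs, differed by 0.67, and Ptprcap, a partner of the phosphatase CD45, by 0.39. Without control array 1, Icos differed by 0.38 and Cd4 by 0.46, and without control arrays 1 and 2 Cd4 differed by 0.39.

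Among 9 measured kinases and phosphatases, Csk, which restrains Src family kinases, differed by 0.41, and its groups overlapped. Fyn, a Src family kinase that acts beside LCK in T cells, measured 7.27 to 7.40 on the RANKL-deficient and 7.04 to 7.17 on the control arrays, a difference of 0.20. Ppp3ca, a catalytic subunit of calcineurin, differed by −0.57 and by −0.33 without control array 1.

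The adaptor list held the widest range, from −1.45 to 1.21 over 19 genes. Fyb encodes ADAP, which links SLP-76 to integrins. It measured 6.21, 6.55 and 6.48 on the RANKL-deficient arrays, against 7.23, 8.19 and 8.18 on the control arrays. Every RANKL-deficient array lay lower, with a difference of −1.45 (SE 0.28, limma adjusted p = 0.327). Without control arrays 1 and 2 the difference was −1.77.

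Skap1, whose protein binds ADAP, lay in the opposite direction. It measured 7.45, 7.82 and 7.38 on the RANKL-deficient arrays, against 6.69, 6.46 and 7.08 on the control arrays, a difference of 0.81 (SE 0.20, limma adjusted p = 0.423). Without control arrays 1 and 2 it was 0.47. Sla, whose product SLAP helps remove receptor chains from the cell surface, differed by 0.51 with no overlap. Sh2d2a, an adaptor of T cells named after its values were seen, had the highest difference of the list, 1.21 (limma adjusted p = 0.511).

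The downstream enzymes and transcription factors had differences from −0.34 to 0.34 over 13 genes, with 0 at an unadjusted p under 0.05. Rasgrp1, which activates Ras downstream of LAT, differed by −0.34. Dgkz, whose enzyme removes the lipid diacylglycerol that recruits RasGRP1, differed by 0.28, and Nfatc3, a transcription factor activated by calcineurin, by −0.31 (−0.17 without RANKL-deficient array 3). Without control arrays 1 and 2, Rasgrp1 differed by −0.15 and Dgkz by 0.14. Of 8 T lineage transcription factors, 1 had groups apart (12.5%), against 14.4% of all genes. This was Ets1, at a difference of 0.36. Tox and Tcf12 differed by 0.21 and −0.27, and their groups overlapped. Tox was at 0.096 without control array 3, and Tcf12 at −0.054 without control array 2 and −0.50 without control array 1.

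Innate cells use other ITAM adaptors and related kinases, and 7 of these were measured. Hcst encodes DAP10, the adaptor of the natural killer receptor NKG2D. It measured 10.68, 10.70 and 10.42 on the RANKL-deficient arrays, against 9.76, 9.76 and 9.46 on the control arrays. The groups were apart by 0.94 (SE 0.15, 95% confidence interval 0.59 to 1.30, limma adjusted p = 0.245). The NKG2D gene Klrk1 differed by 1.20 (limma adjusted p = 0.256). Syk, a kinase related to ZAP-70, differed by −0.37, and Btk by −0.29, both between means below the median gene.

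**Figure D4:**
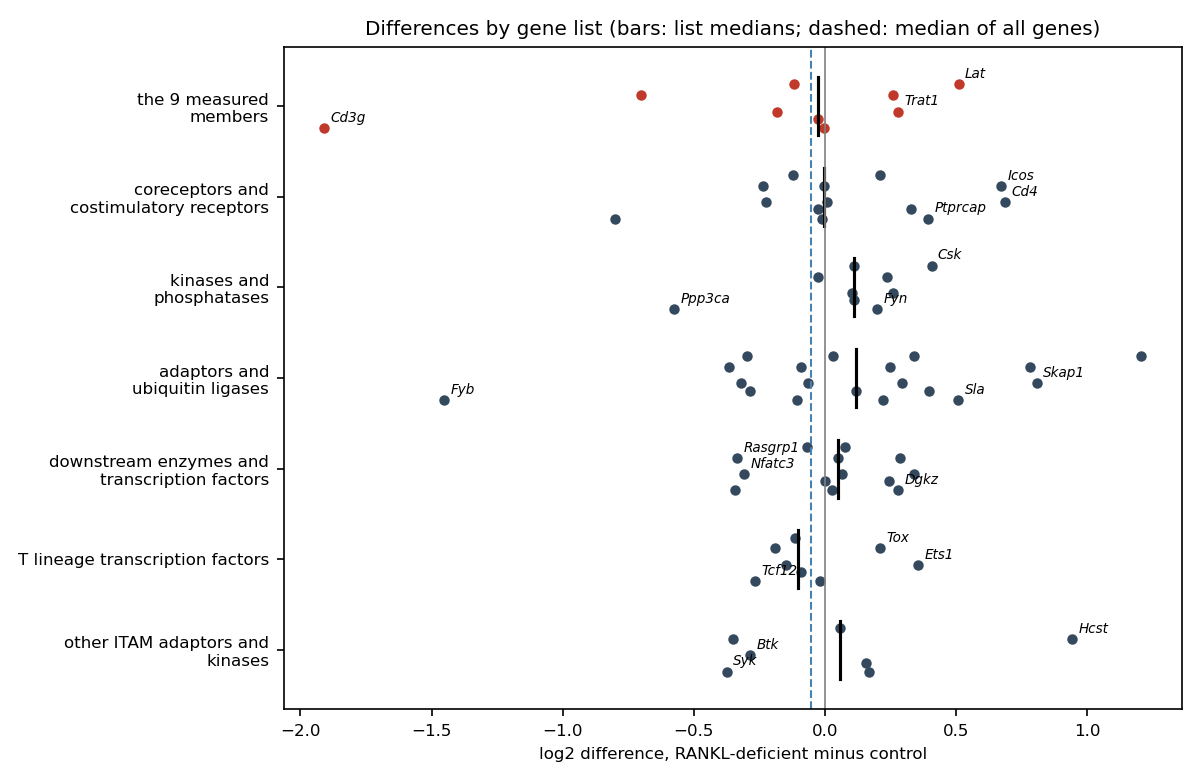
Log2 difference, RANKL-deficient minus control (x axis), of the 9 measured genes (red) and of 69 genes of the wider pathway by list (dark), 1 point a gene, spread vertically for legibility. Bars are list medians, and the dashed line is the median of all genes (−0.054). Cd3g and Fyb lie farthest to the left.

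The labelled cell type was checked against marker lists. Of 13 CCR6+ ILC3 markers, 11 were measured and all 11 lay above the median gene, with list means of 10.16 to 10.32 on the RANKL-deficient and 9.96 to 10.12 on the control arrays. Il7r, Id2 and Kit were the highest, at 12.26, 11.60 and 10.82 in RANKL-deficient and 12.28, 11.47 and 10.85 in control cells.

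The T cell list had a mean of 5.64 to 5.77 on the RANKL-deficient and 5.50 to 5.88 on the control arrays, and 4 of its 8 markers lay above the median gene. These were Icos, Cd4, Ctla4 and Foxp3. Cd8a, Cd8b1, Cd28 and Cd40lg lay below it, and log2 values have no 0 to set them against. Ctla4, an inhibitory receptor, measured 5.26, 4.93 and 5.07 on the RANKL-deficient arrays and 5.02, 6.78 and 5.86 on the control arrays, so its highest value was on control array 2. The list means overlapped between groups. Of the 8 markers, 2 had higher and 6 had lower values in RANKL-deficient cells. Over all 19938 genes, 7884 had higher and 12054 lower values. The part of T cells in the Cd3g difference was not tested. Of the T cell receptor chain list, 1 of 13 symbols was measured, Ptcra, at 4.87 in RANKL-deficient and 4.96 in control cells.

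The lists of the other cell types overlapped between groups as well. The gamma delta T cell list, with 5 of 6 measured, ran from 6.39 to 6.55 on the RANKL-deficient and from 6.28 to 6.69 on the control arrays, led by Maf, Zbtb16 and Blk. The natural killer and ILC1 list, with all 10 measured, ran from 5.22 to 5.37 on the RANKL-deficient and from 5.19 to 5.60 on the control arrays, led by Il2rb, Klrk1 and Prf1. The ILC2 list, with 6 of 8 measured and led by Gata3, Il13 and Hpgds, ran from 5.30 to 5.73 on the RANKL-deficient and from 5.48 to 5.66 on the control arrays.

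The B cell list, with 7 of 8 measured and led by Cd79b, Blk and Pax5, had means of 4.27 to 4.38 on the RANKL-deficient and 4.31 to 4.44 on the control arrays. The myeloid list, with 7 of 8 measured and led by Lyz2, Cx3cr1 and C1qa, had means of 4.95 to 5.29 on the RANKL-deficient and 4.96 to 5.38 on the control arrays. The epithelial list, with all 8 measured and led by Krt8, Fabp2 and Krt18, had means of 4.97 to 5.71 on the RANKL-deficient and 5.45 to 5.52 on the control arrays.

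**Figure D5:**
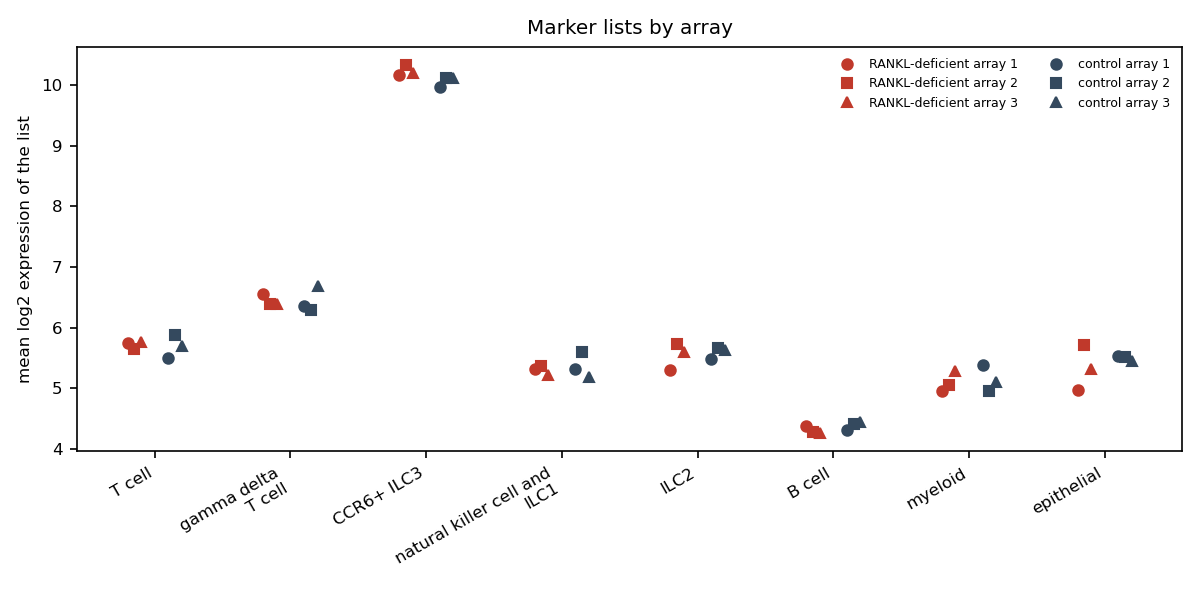
Mean log2 expression of each marker list (y axis) on each array, with RANKL-deficient arrays to the left of control arrays within each list. The CCR6+ ILC3 list lies at 9.96 to 10.32 and the T cell list at 5.50 to 5.88, and the groups overlap in every list but the CCR6+ ILC3 list.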

How the data were processed

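Total RNA of sorted cells was purified, and 2 ng was amplified with a NuGEN kit and hybridised to Affymetrix mouse gene arrays, per the labels' protocols. The authors deposited log2 expression values for 35556 probe sets on 6 arrays. The submitters' processing notes name RMA and Affymetrix Expression Console. Their versions, settings and build were not stated in these sources. RMA equalises the arrays, so a shift of all genes in a group would not be seen, and the number of arrays limits the precision. Groups came from the sample titles. Some listed genes are not reported here.

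Of the probe sets, 21789 had 1 symbol, 1621 several and 12146 none, and symbols were updated by identifier through a RefSeq table of GRCm38.p6. For genes with more than 1 probe set the highest mean was used, giving 19938 genes, with no filter on low values. The groups were set against each other by two-sided tests of limma 3.58.1 (lmFit, then eBayes) under R 4.3.3, and p-values were adjusted over all genes by Benjamini-Hochberg. Rule for names: all members, Tnfsf11, genes past the threshold, the 3 smallest p of each pathway list, the 3 highest means of each marker list and the 5 genes most like the CD3 mean. Members and lists were chosen with earlier results of these data known. The procedure was tested on simulated data. Alternatives covered scaling, filtering, probe set choice, variance model, array weights, a replicate block and left-out arrays. Same-numbered arrays had deviation correlations of −0.023, 0.050 and 0.027, below the 0.1 set for pairing, so the numbers were not taken to pair the samples.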

Additional observations from a re-analysis of the deposited data

How the results depend on the processing

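Of the 15 alternatives, those that left more than 1 array in each group are counted here. In these, 0 of the measured members and 0 of the pathway genes passed the adjusted threshold of limma. An unadjusted p under 0.05 was reached by 2 to 4 members and 8 to 14 pathway genes. The count over all genes tested moved between 918 and 2812. The 918 came where only genes above the median were tested, and the 2812 without control array 3. The 4 members came with array weights, at 2202 genes. Cd3g, Cd3e, Cd3d, Lat, Trat1 and Cd5 kept their direction under every alternative run for them. Without 1 array, Cd3g ranged from −2.34 to −1.59, Lat from 0.37 to 0.59 and Fyb from −1.77 to −1.29. The median difference of the members ranged from −0.10 to 0.042 without 1 array. It was −0.41 over the 4 members among genes above the median, since the members below the median gene are left out there. Directions near 0 turned. Cd247 measured 0.010 after quantile normalization, 0.024 after median centring and −0.10 to 0.096 without 1 array. Themis measured 0.064 after quantile normalization, 0.048 after median centring, 0.080 with array weights, 0.075 without control arrays 1 and 2 and −0.11 to 0.14 without 1 array. Zap70 ranged from −0.24 to 0.018 and Tnfsf11 from −0.078 to 0.18 without 1 array, and Tnfsf11 measured −0.033 after quantile normalization.

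The 1 call over all genes, Ccr2, became 2 genes with the trend and robust options of eBayes. It became 0 when all probe sets were tested (2482 at an unadjusted p under 0.05), and 0 without control arrays 1 and 2 together (1254), a setting chosen after seeing the data. Without 1 array the count ran from 0 to 1, and it stayed at 1 without RANKL-deficient array 3 alone. With the replicate block the count was 0 (1596 at an unadjusted p under 0.05), and 4 of 6 arrays correlated best with their own number. The cause of these changes was not tested.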
